A study of Mus musculus with 55 samples.

Results

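WT female mice in metestrus were compared with WT females in diestrus by RNA-seq of the dorsal hippocampus. The comparison takes the gene counts of every library labelled WT with stage metestrus or diestrus, which is 10 of the 55 libraries of the series, 4 from metestrus mice and 6 from diestrus mice. Each library came from 1 mouse, and the mice were adults on a C57/BL6j background with no treatment. WT mice carry intact Cnih3, a gene for an auxiliary protein of AMPA-type glutamate receptors, and the other groups of the series are WT mice at other stages, WT males, and Cnih3 knockout (KO) mice. KO mice in metestrus were 13.29 to 22.57 weeks old and those in diestrus 10.86 to 23.43 weeks old, all from Cnih3 x B6 parents. The metestrus mice 13_1, 3_3, 380_1 and 5_1 were 13 to 18.57 weeks old, the first from Cnih3 x B6 parents and the others from B6 x B6 parents. Of the diestrus mice, 548, 549 and 569 have numbers of 3 digits and no second part, and these are shown apart as the 3-digit mice. They were 11.71 to 12.29 weeks old and came from Cnih3 x B6 parents. The other diestrus mice were 2_2, 380_4 and 8_1, aged 16.43 to 17.14 weeks, with B6 x B6 parents for the first 2 and Cnih3 x B6 parents for 8_1. All 7 mice of the series with 3-digit numbers were in diestrus, so number series and stage cannot be told apart in them, and no record says what the number series marks. The stage was read from vaginal cytology, and no hippocampal transcript was available as an independent check of it.

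The estrous cycle of rodents passes from proestrus, with high estradiol, through estrus and metestrus to diestrus, and progesterone is raised after ovulation. Hippocampal neurons carry receptors for both hormones, and dendritic spines of CA1 pyramidal cells are known to vary in density over the cycle. Metestrus and diestrus are neighbouring stages of the cycle.

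Total counts were 43052058 to 56424634 in metestrus, 54066536 to 58932939 in the 3-digit diestrus mice and 38769215 to 56890800 in the other diestrus mice. Markers of the hippocampal fields were present in every library: the summed level of 10 dentate granule cell markers was 301 to 475 counts scaled to library size (CPM), and that of 8 CA1 markers was 282 to 447 CPM. All differences below are log2 fold changes of metestrus against diestrus, with a standard error (SE), so a positive value means a higher level in metestrus. A gene was called where its Benjamini-Hochberg adjusted p, over all 16168 genes tested, was under 0.05. Levels are log2 CPM of single mice. In bulk tissue, fewer cells of a type and less RNA per cell cannot be told apart. The RNA came from the supernatant of a centrifuged lysate, where nuclear or membrane-bound RNA may be recovered in part. Recovery in each mouse was not measured, so differences in it cannot be told apart from differences in expression.

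Metestrus and diestrus differed in 1170 genes (7.24% of those tested), with 903 higher in metestrus (5.59%) and 267 higher in diestrus (1.65%). These are the shares to set beside the calls of each list below against all diestrus mice. Genes higher in metestrus included long non-coding RNAs such as Meg3 and Malat1, the myelin genes Mag and Cldn11, the adhesion molecule gene Cntn2, the amyloid precursor gene App and the AMPA receptor gene Gria2. Genes higher in diestrus included the astrocyte genes Ndrg2 and Aldoc and genes of the mitochondrial respiratory chain. The differences were mostly small, and 202 of the 1170 exceeded 1 on the log2 scale. The smallest adjusted p was 0.00525. Tests without library quality weights called fewer genes: 0 with voom alone (1669 at an unadjusted p under 0.05), 0 with edgeR's quasi-likelihood test (1222) and 1 with DESeq2 (1317). Library weights were 0.33, 0.49 and 0.93 for the diestrus mice 2_2, 380_4 and 8_1, and 0.89, 1.14 and 0.76 for 548, 549 and 569, so the first 2 counted least. Without mouse 548, 549 or 569, 0 genes were called (1071, 1007 and 1003 at an unadjusted p under 0.05). The count was 4902, 4916 and 4962 without mouse 2_2, 380_4 or 8_1, and 638 without the metestrus mouse 13_1.

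The difference lay in the 3-digit diestrus mice. Against these 3 mice alone, metestrus differed in 6219 genes (38.5%), of which 3415 were higher in metestrus (21.1%) and 2804 higher in the 3-digit mice (17.3%). These are the shares to set beside the calls of each list below against the 3-digit mice. Against the other 3 diestrus mice, 0 genes were called by limma, and 352 had an unadjusted p under 0.05. edgeR and DESeq2 also called 0 genes there (193 and 207 at an unadjusted p under 0.05). The difference inside the diestrus group was tested directly, and the 3-digit mice differed from the other diestrus mice in 4988 genes (30.9%). Of these, 2198 were higher (13.6%) and 2790 lower (17.3%) in the 3-digit mice. The count for this test was 4149 genes in DESeq2 and 3812 in edgeR.

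**Figure D1:**
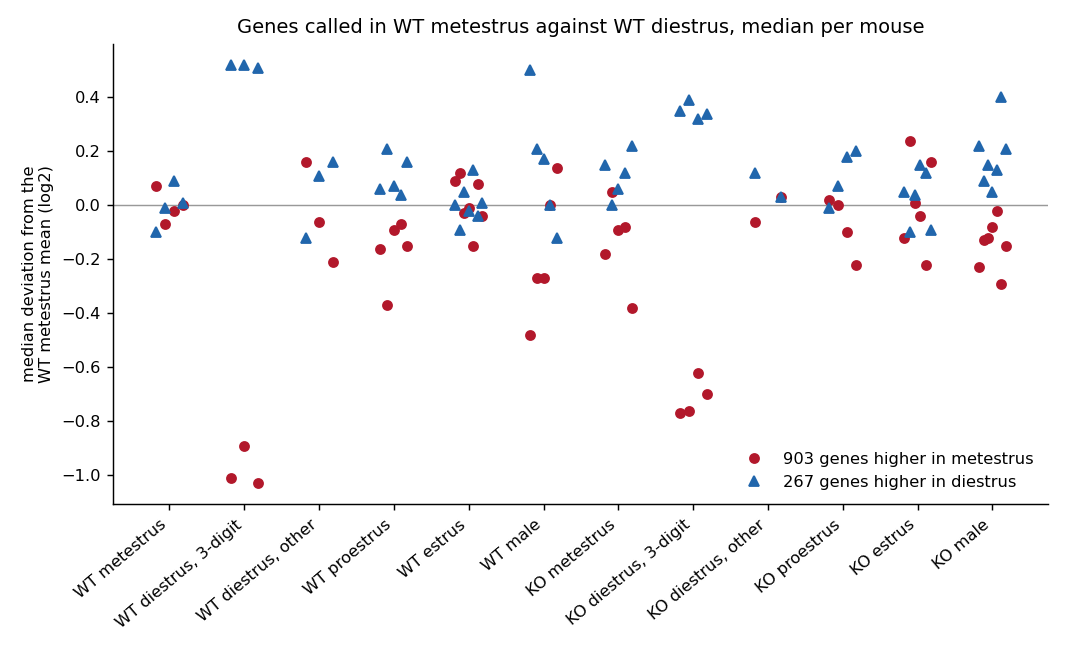
Each point is 1 mouse of the series, placed by group, and the y axis gives the median deviation from the WT metestrus mean (log2) over the 903 genes called higher in metestrus and the 267 called higher in diestrus. The 3-digit mice 548, 549 and 569 sit at -1.01, -0.89 and -1.03 for the 903 genes, and the other WT diestrus mice at 0.16, -0.06 and -0.21. The 4 KO mice with 3-digit numbers lie between -0.77 and -0.62.

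The 903 genes called higher in metestrus show the same split, and since these genes were chosen with the 3-digit mice included, their values are a description. Their median log2 fold change was 0.63 against all diestrus mice, 0.94 against the 3-digit mice and 0.08 against the other diestrus mice. In 826 of the 903 (91.5%), the 3-digit mice lay below all 4 metestrus mice and the other 3 diestrus mice, an order that 17.7% of all tested genes had. Only 24 of the 903 (2.66%, against 0.402% of all genes tested) had all 6 diestrus mice below all 4 metestrus mice. The 267 genes called higher in diestrus had medians of -0.36, -0.52 and -0.08 in the same order. The 3-digit mice lay above the other 7 in 227 of them (85%, against 15.2% of all genes), and all 6 diestrus mice lay above metestrus in 10 (3.75%, against 0.303%).

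Several long non-coding RNAs differed strongly. Meg3, an imprinted RNA that stays largely in the nucleus (ENSMUSG00000021268, chr12:109541001-109571726, GRCm38), was at 9.98, 10.14, 10.22 and 10.14 log2 CPM in metestrus. It was at 6.82, 6.78 and 7.35 in the 3-digit mice and at 10.37, 9.94 and 9.74 in the other diestrus mice. The 3-digit mice stood far below, and the other diestrus mice overlapped metestrus. The fitted difference was 2.03 (SE 0.40, adjusted p = 0.00525) against all diestrus mice, 3.17 (SE 0.23, adjusted p = 1.9e-14) against the 3-digit mice, which is 9.01-fold, and 0.17 (SE 0.24) against the others.

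Malat1, an abundant RNA of nuclear speckles, was at 10.73, 10.75, 10.24 and 10.46 log2 CPM in metestrus, at 7.73, 7.98 and 8.54 in the 3-digit mice, and at 10.60, 9.56 and 10.19 in the other diestrus mice. Again only the 3-digit mice were clear of metestrus. Its difference was 1.74 (SE 0.35, adjusted p = 0.00525), with 2.52 against the 3-digit mice and 0.52 (SE 0.26) against the others. Firre, an X-linked RNA that binds chromatin, was at 3.67 to 3.90 in metestrus, at 1.56, -0.13 and 1.62 in the 3-digit mice and at 3.98, 3.77 and 3.35 in the others. Ftx, a neighbour of Xist in the X inactivation centre, was at 4.36 to 4.72, at 2.01, 2.31 and 1.78, and at 4.86, 4.53 and 4.12 in the same order of groups. In both genes every 3-digit mouse lay below every other mouse of the comparison.

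Of 13 nuclear long non-coding RNAs on the list, 7 were called higher in metestrus and 0 lower, with a median of 0.54 where the median of all tested genes was 0.01. Miat differed by 1.96 (SE 0.41), Snhg11, a host of small nucleolar RNAs, by 1.68 (SE 0.34), and Neat1, the scaffold of paraspeckles, by 1.11 (SE 0.30). Mir124a-1hg, the host transcript of the neuronal miR-124, differed by 1.62 (SE 0.31). Not every member was called. Rian, from the same imprinted region as Meg3, gave 0.09, Peg13 gave 0 and Xist gave 0.22, none of them called. Against the 3-digit mice 8 of the 13 were higher in metestrus and 1 was lower, with a median of 0.78, and against the other diestrus mice 0 were called, with a median of 0.08. Rtl1, an imprinted gene beside Meg3, differed by 1.99 (SE 0.48), at low levels of 0.85 to 1.46 log2 CPM in metestrus and -2.14 to -1.83 in the 3-digit mice. Its reads cannot be separated from those of its antisense transcript, because the library kit does not mark strand.

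Some myelin genes were higher in metestrus. Mag, an adhesion protein of the inner myelin wrap, was at 6.75, 7.06, 6.79 and 6.70 log2 CPM in metestrus, at 5.04, 5.52 and 5.61 in the 3-digit mice, and at 7.16, 6.77 and 6.94 in the other diestrus mice. The 3-digit mice lay below and the other diestrus mice lay within or above the metestrus range. Mag differed by 0.87 (SE 0.23, adjusted p = 0.0164).

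The list of mature oligodendrocyte and myelin genes held 15 genes, of which 7 were called higher in metestrus, 0 lower and 8 did not pass, with a median of 0.48. Cldn11, the tight junction protein of myelin, gave 0.66 and Trf, the iron carrier transferrin, gave 0.85. The myelin genes Mbp (0.04), Cnp (0.05) and Mobp (0.09), all abundant in oligodendrocytes, were not called, and each had a log2 fold change near 0 against the 3-digit mice as well (0.09, 0.12 and 0.16). The 3-digit mice alone gave 10 calls of 15, all higher in metestrus, where 21.1% of all genes were, with a median of 0.78. Against the other diestrus mice 0 were called and the median was -0.05.

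**Figure D2:**
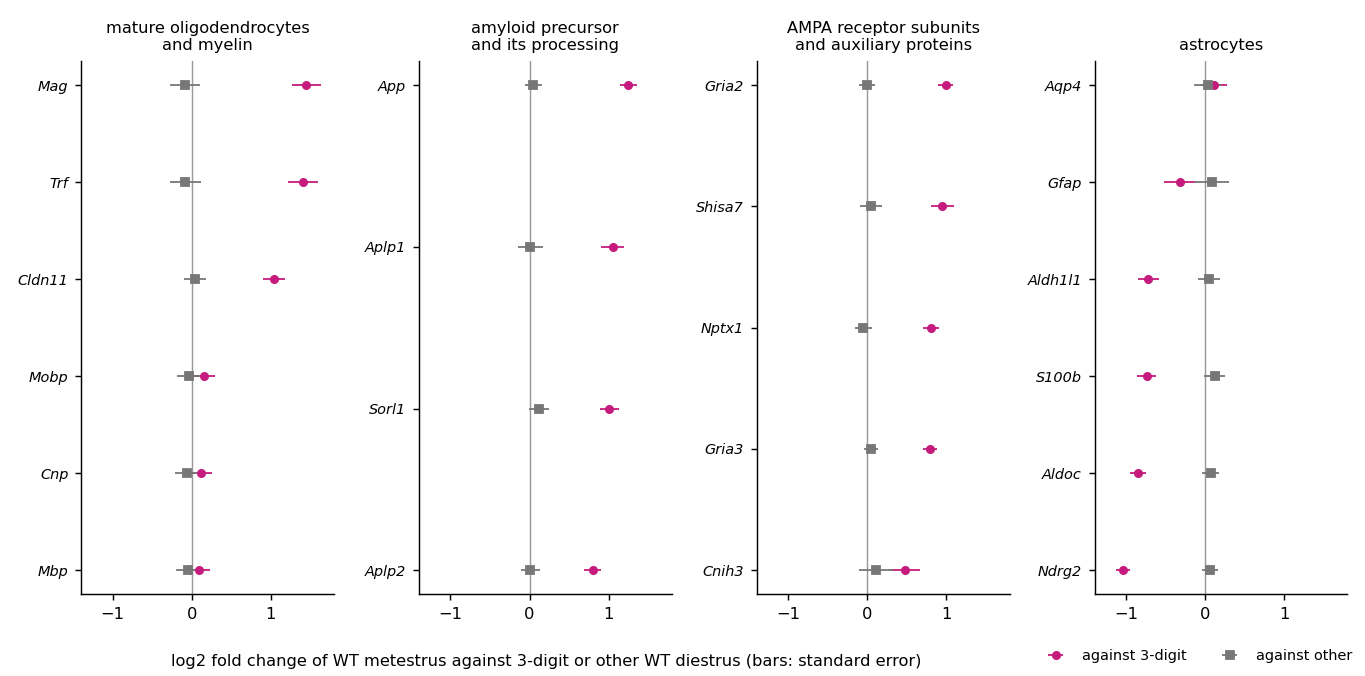
Each row is a gene of 1 list that is named in the text, and the x axis is the log2 fold change of WT metestrus against the 3-digit mice and against the other diestrus mice, with bars of 1 SE. Values against the other diestrus mice sit near 0, while those against the 3-digit mice mostly lie to the right in the first 3 panels and to the left in the astrocyte panel, with Mbp, Cnp and Mobp close to 0 in both.

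Genes for the axon's nodes and paranodes followed the same course. Cntn2, an adhesion molecule that anchors potassium channels beside the paranode (chr1:132509427-132543256), was at 5.28, 5.26, 5.16 and 5.31 log2 CPM in metestrus. It was at 3.61, 3.61 and 3.53 in the 3-digit mice and at 5.76, 5.18 and 5.13 in the other diestrus mice. The difference was 1.05 (SE 0.21, adjusted p = 0.00525), 1.67 (SE 0.16) against the 3-digit mice and -0.01 (SE 0.14) against the others. Of the 14 node and paranode genes 8 were called higher in metestrus and 0 lower, with a median of 0.44. Nfasc, which organises the node, gave 0.82, its partner Nrcam 0.61, and Scn8a, the main sodium channel of mature nodes, 0.58.

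Among glutamate receptor genes, Gria2, the subunit that keeps AMPA receptors impermeable to calcium, was at 9.43, 9.24, 9.54 and 9.28 log2 CPM in metestrus. It was at 8.30, 8.43 and 8.30 in the 3-digit mice and at 9.41, 9.45 and 9.23 in the other diestrus mice, which lay inside or next to the metestrus range. Its difference was 0.62 (SE 0.14, adjusted p = 0.00761), with 0.99 (SE 0.09) against the 3-digit mice and 0.00 (SE 0.10) against the others. The list of AMPA receptor subunits and auxiliary proteins had 19 members, with 5 called higher in metestrus, 0 lower and a median of 0.35. Gria3 gave 0.52, Shisa7, an auxiliary subunit, gave 0.61, and Nptx1, a secreted pentraxin that clusters AMPA receptors, gave 0.48. Set against the 3-digit mice, 13 of the 19 were called higher in metestrus and 0 lower, where 21.1% and 17.3% of all genes were.

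Cnih3, the gene deleted in the KO mice and a member of the AMPA receptor list, was at 5.69, 5.07, 5.17 and 5.41 log2 CPM in metestrus, at 4.92, 4.78 and 4.80 in the 3-digit mice, and at 5.79, 5.18 and 4.95 in the other diestrus mice. The 3-digit mice were the lowest 3 of the 10. The difference of 0.35 (SE 0.19, adjusted p = 0.219) was not called against all diestrus mice. It was 0.48 (SE 0.19, adjusted p = 0.0457) against the 3-digit mice and 0.11 (SE 0.21) against the others.

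Other receptor and channel families varied in their calls. Of 24 NMDA receptor and postsynaptic scaffold genes, 1 was called, Grin1, the obligatory NMDA receptor subunit, at 0.79 (SE 0.23, adjusted p = 0.0282), and the median of the list was 0.08. Camk2a, the abundant kinase of the postsynaptic density, was higher in the 3-digit mice (11.34, 11.24 and 11.16 log2 CPM) than in metestrus (10.65 to 10.98) but was not called against all diestrus mice (-0.29, adjusted p = 0.083). Of 34 potassium channel genes 11 were called, all higher in metestrus, where 5.59% of all genes were. Among them was Kcnd2 (0.36), a channel of A-type currents, and the median of the list was 0.32. The 23 genes of synaptic vesicle release split, with Sv2a (0.59) and Syt1 (0.34), both proteins of the vesicle membrane, higher in metestrus, and Stx1a (-0.37) and Cplx1 (-0.30), proteins of the fusion machinery, higher in diestrus. Their median was -0.01.

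App, the amyloid precursor (chr16:84949685-85173766), was at 8.99, 8.84, 9.01 and 9.00 log2 CPM in metestrus, at 7.72, 7.78 and 7.54 in the 3-digit mice, and at 9.09, 8.90 and 8.81 in the other diestrus mice. The difference was 0.79 (SE 0.16, adjusted p = 0.00556), with 1.25 (SE 0.11) against the 3-digit mice and 0.05 (SE 0.11) against the others. Its relatives Aplp1 (0.66) and Aplp2 (0.50) and the sorting receptor Sorl1 (0.67) were higher in metestrus too. In all, 5 of 15 genes of the amyloid precursor and its processing were called, all higher in metestrus, with a median of 0.38. Not all members went this way. Against the 3-digit mice 10 of the 15 were called higher in metestrus and 2 higher in diestrus, with values from -0.56 to 1.25. Some chaperones of the endoplasmic reticulum, which fold secreted and membrane proteins, were also higher in metestrus. Of 14 chaperones of this compartment 4 were called, Hsp90b1 (0.51), Calr (0.41), Canx (0.39) and Pdia3 (0.87), none was lower, and the median was 0.36. Hsp90b1 was at 6.74 to 7.15 log2 CPM in metestrus, at 6.14, 6.13 and 6.21 in the 3-digit mice and at 6.85, 6.88 and 6.80 in the others. Against the 3-digit mice 10 of the 14 were called higher in metestrus, where 21.1% of all genes were, and against the other diestrus mice 0.

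Lists put together after the values were seen are given as a description. Of 208 solute carriers outside the mitochondrial family 43 were called, all higher in metestrus, with a median of 0.33, while of the 40 mitochondrial Slc25 carriers 2 were higher and 1 lower, with a median of -0.03. Among 46 clustered protocadherins, cell surface proteins of neuronal identity, 6 were called higher in metestrus and the median was 0.46. Of 19 translocon and oligosaccharyltransferase genes, which move and glycosylate secreted proteins, 6 were called higher in metestrus. Of 20 cytosolic heat shock proteins 1 was called, higher in diestrus, and the median was -0.21.

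Genes higher in diestrus included astrocyte genes. Ndrg2, a cytoplasmic protein typical of astrocytes (chr14:51905271-51914158), was at 8.76, 8.83, 8.68 and 8.85 log2 CPM in metestrus. It was at 9.89, 9.78 and 9.85 in the 3-digit mice and at 8.45, 8.81 and 8.81 in the other diestrus mice. Each 3-digit mouse was about 1 log2 unit above the rest, and mouse 2_2 was the lowest of the 10. The difference was -0.62 (SE 0.14, adjusted p = 0.00956), with -1.04 (SE 0.09) against the 3-digit mice and 0.06 (SE 0.10) against the others. Aldoc, the glycolytic aldolase of astrocytes and some neurons, was at 10.19 to 10.47 in metestrus, at 11.11, 11.18 and 11.12 in the 3-digit mice, and at 9.90, 10.39 and 10.24 in the others.

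Of 12 astrocyte genes only Ndrg2 and Aldoc were called, and the median was -0.12. Against the 3-digit mice 5 of the 12 (41.7%) were called, all higher in diestrus, and the median was -0.24. Of all genes, 17.3% were called higher in diestrus against these mice. S100b (-0.41, adjusted p = 0.0623) and Aldh1l1 (-0.43, adjusted p = 0.0698) were higher in each 3-digit mouse than in the other 7 mice but were not called. The astrocyte markers Aqp4 (0.09) and Gfap (-0.17) were not called either, also not against the 3-digit mice (adjusted p = 0.59 and 0.195). The summed level of the list was 3490 to 3820 CPM in metestrus, 5140 to 5340 in the 3-digit mice and 3160 to 3620 in the other diestrus mice. The sum weighs abundant members such as Aldoc and Ndrg2 most. The median deviation of the members from the WT metestrus mean (log2) was -0.02 to 0.02, 0.16 to 0.23 and -0.12 to 0.02 in the same order. Against the 3-digit mice 8 of the 12 genes had negative values and 4 positive.

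Genes for large complexes differed by little each, and most of them were called only against the 3-digit mice. Of 83 nuclear-encoded subunits of the respiratory chain 6 were called higher in diestrus and 0 higher in metestrus, with a median of -0.25. Against the 3-digit mice 74 of the 83 were called higher in diestrus and 2 higher in metestrus, with a median of -0.44, and against the others 0 were called, with a median of 0.09. Uqcrc1, a core subunit of complex III, differed by -0.31 (SE 0.10). Cox4i1, a subunit of cytochrome oxidase, was at 9.56 to 9.81 log2 CPM in metestrus, at 10.43, 10.36 and 10.43 in the 3-digit mice and at 9.57, 9.54 and 9.83 in the others, a difference of -0.40 (SE 0.12, adjusted p = 0.0359). Of the 13 mRNAs that the mitochondrial genome itself encodes, 0 were called in any of these comparisons, with medians of -0.03 against all diestrus mice and -0.23 against the 3-digit mice.

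Genes for the cytosolic ribosome were called against the 3-digit mice and not against the other sets of WT diestrus mice. None of the 80 genes for cytosolic ribosomal proteins was called against all diestrus mice, where their median was -0.23. Against the 3-digit mice 74 of the 80 were called higher in diestrus and 1 higher in metestrus, with a median of -0.41. Rpl4 gave -0.26 and Rpl3 -0.29 against all diestrus mice, neither called. Rpl3 was at 10.62 to 10.91 log2 CPM in metestrus, at 11.24, 11.16 and 11.30 in the 3-digit mice and at 10.52 to 10.86 in the other diestrus mice. Of 37 proteasome subunits 2 were called higher in diestrus, Psmd13 (-0.28) and Psmb10 (-0.40), and 31 against the 3-digit mice, where 1 was higher in metestrus. Of all genes, 1.65% were called higher in diestrus against all diestrus mice and 17.3% against the 3-digit mice. For all 3 lists the median against the other diestrus mice was between 0.03 and 0.09, and 0 members were called.

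**Figure D3:**
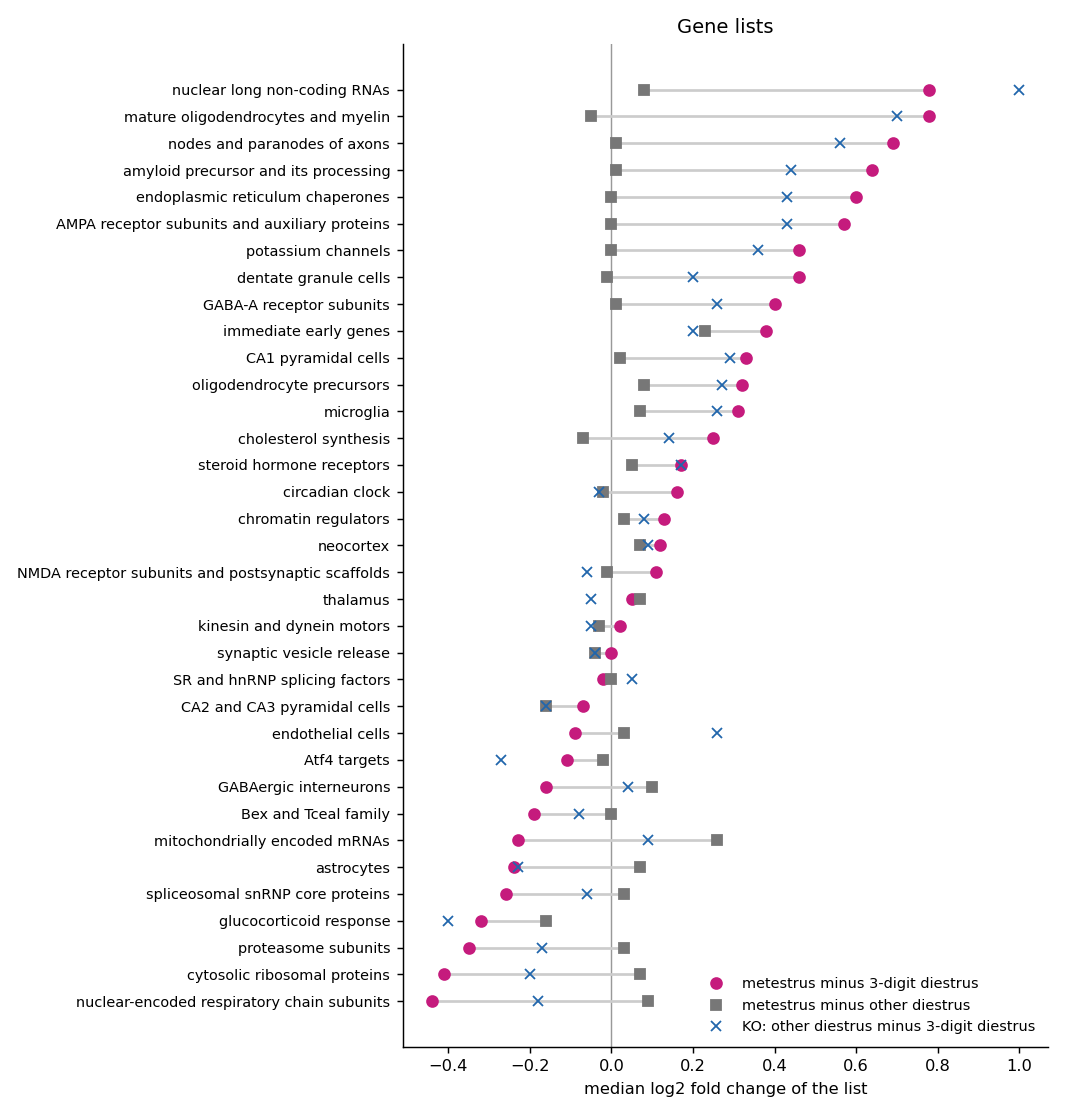
Each row is a gene list and the x axis is the median log2 fold change of its members in metestrus against the 3-digit and against the other WT diestrus mice. Crosses give the KO mice as other minus 3-digit diestrus, and the choroid plexus, pituitary, meningeal and blood lists, the gene types and the lists put together after the values were seen are left out. Of the lists drawn, the medians against the 3-digit mice run from -0.44 for the respiratory chain to 0.78 for myelin and nuclear long non-coding RNAs, and against the other diestrus mice they lie between -0.16 and 0.26.

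The other leading genes by adjusted p were Bves, a membrane protein that binds cyclic AMP (1.47, SE 0.25), Arntl2, a paralog of the clock factor Bmal1 (1.18, SE 0.22), Adpgk, a glucokinase that uses ADP (1.17, SE 0.22), and Ptpro, a receptor phosphatase (0.80, SE 0.15). Pcgf6, a Polycomb component, gave 1.23, Wsb1, a ubiquitin ligase subunit, gave 1.11, and Tia1, an RNA-binding protein of stress granules, gave 0.59. In diestrus the leading genes were Ebag9 (-0.47), Qars, the glutaminyl-tRNA synthetase (-0.42), Mageh1 (-0.47), Agbl4, a tubulin deglutamylase (-0.59), Hnmt, which degrades histamine (-0.47), Sft2d1 (-0.36), Blcap (-0.28), Shd (-0.54), Fbxo44 (-0.36), the general transcription factor Gtf2b (-0.37) and the kinase Cdk10 (-0.38).

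The test inside the diestrus group was led by partly the same genes. Of those with the smallest p, Meg3, Snhg11, Il1rap, App, Cntn2 and Gria2 were lower in the 3-digit mice, by -3.00, -2.59, -1.62, -1.20, -1.68 and -0.99. Il1rap, the shared chain of the interleukin-1 receptor, was at 5.37 to 5.85 log2 CPM in metestrus, at 3.86, 4.03 and 4.35 in the 3-digit mice and at 5.63 to 5.76 in the others. Ndrg2, Aldoc, Asrgl1, Fxyd6, Smc1a and Scp2 were higher in the 3-digit mice, by 1.10, 0.92, 0.70, 0.93, 0.65 and 0.63. Fxyd6, a regulator of the sodium pump, was at 5.93 to 6.21 in metestrus, at 7.00, 6.99 and 7.04 in the 3-digit mice and at 5.86 to 6.22 in the others. In each of these 12 genes the 3-digit mice lay apart from all 7 other mice. The genes were chosen by this test, so their distance from the other diestrus mice is built in and is a description.

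Cell types of the hippocampus held 0 to 2 calls a list, where 7.24% of all genes were called. Of 10 dentate granule cell markers 2 were called, of 8 CA1 markers 2, among them Wfs1 (0.57), and of 10 CA2 and CA3 markers 0. Of 13 interneuron genes 2 were called, among them Reln, the secreted protein reelin (0.86), which was at 3.50 to 3.77 log2 CPM in metestrus, 1.79 to 2.46 in the 3-digit mice and 3.64 to 3.75 in the others. Of 12 oligodendrocyte precursor genes 2 were called. All calls of these lists were higher in metestrus, and the medians were 0.30, 0.26, -0.10, -0.03 and 0.26 in the order given. Against the 3-digit mice, where 38.5% of all genes were called, the calls higher and lower in metestrus were 6 and 1 for dentate granule cells, 3 and 2 for CA1, 2 and 2 for CA2 and CA3, 4 and 1 for interneurons and 6 and 1 for oligodendrocyte precursors.

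Other fixed lists had few calls or went both ways against all diestrus mice. Of 26 chromatin regulators 4 were called, all higher in metestrus, where 5.59% of all genes were, with a median of 0.09. Of 33 SR and hnRNP splicing factors 3 were higher in metestrus and 3 in diestrus. Srsf2, a splicing factor of nuclear speckles, was the largest of these at 1.01 (SE 0.23), with levels of 6.10 to 6.29 log2 CPM in metestrus, 4.51 to 4.76 in the 3-digit mice and 6.08 to 6.40 in the others. Of 20 spliceosomal snRNP core proteins 0 were called (median -0.13), of 19 cholesterol synthesis genes 1 was higher in metestrus and 2 in diestrus (median 0.09), of 15 Atf4 targets 1 was higher in metestrus (median -0.02), of 24 kinesin and dynein genes 1 was higher in diestrus (median 0), and of the 10 Bex and Tceal genes 0 were called (median -0.11). Against the 3-digit mice 9 of the 20 snRNP core proteins were called, all higher in diestrus. Calls higher and lower in metestrus there were 9 and 9 for splicing factors, 7 and 0 for chromatin regulators and 7 and 3 for cholesterol synthesis. They were 3 and 3 for Atf4 targets, 1 and 6 for kinesins and dyneins, and 0 and 3 for Bex and Tceal genes. Of all genes 21.1% were called higher and 17.3% lower.

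In a few genes both sets of diestrus mice lay on one side of metestrus, though no gene was called against the other diestrus mice. Bves was at 1.92, 1.61, 1.98 and 1.76 log2 CPM in metestrus, at -0.20, -0.19 and 0.37 in the 3-digit mice and at 1.18, 1.46 and 0.52 in the other diestrus mice. All 6 diestrus mice were below all 4 metestrus mice, and the other diestrus mice lay between. Its difference from the other diestrus mice was 0.77 (SE 0.25), which was not called (adjusted p = 1). WT mice in proestrus were at 0.91 to 1.36 and those in estrus at 0.57 to 1.84, so estrus overlapped metestrus.

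Qars was at 5.39, 5.23, 5.50 and 5.51 log2 CPM in metestrus and at 5.53, 5.54 and 5.55 in the other diestrus mice, just above them, while the 3-digit mice were at 5.92, 6.05 and 5.94. Ms4a6b, a membrane protein gene expressed in microglia and macrophages, was at -0.87, -1.73, -1.52 and -0.61 in metestrus, at 0.45, 0.23 and -0.12 in the 3-digit mice and at 0.39, -0.51 and 0.54 in the others. Both sets of diestrus mice lay above metestrus, with differences of -1.42 (SE 0.39) and -1.31 (SE 0.42), and the test between the sets gave 0.11 (SE 0.39, adjusted p = 0.855). The comparison with all diestrus mice gave -1.42 (SE 0.38, adjusted p = 0.0182). None of the 11 genes of the microglia list was called, and the KO mice gave 0.03 for Ms4a6b.

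Some of the largest changes rested on few mice. Defb11, a beta-defensin gene, had 4, 0, 0 and 0 counts in metestrus, 22, 76 and 13 in the 3-digit mice and 0, 2 and 21 in the others. Its fitted difference of -4.38 (SE 1.42, adjusted p = 0.0476) depends on the small number added to counts of 0, and its level is close to the floor in most mice. Wdfy1, an endosomal protein, was at 5.68, 4.43, 4.27 and 4.18 log2 CPM in metestrus, at 5.74, 6.53 and 6.54 in the 3-digit mice and at 4.44, 5.82 and 6.44 in the others, so 1 metestrus mouse and 1 diestrus mouse sat with the other group. Mettl24 spread from -1.50 to 1.45 in metestrus alone. BC046401, a low-level transcript with a large change toward metestrus (2.16, SE 0.59), was at -0.52 to 0.45 in metestrus and -3.50 to -2.36 in the 3-digit mice.

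**Figure D4:**
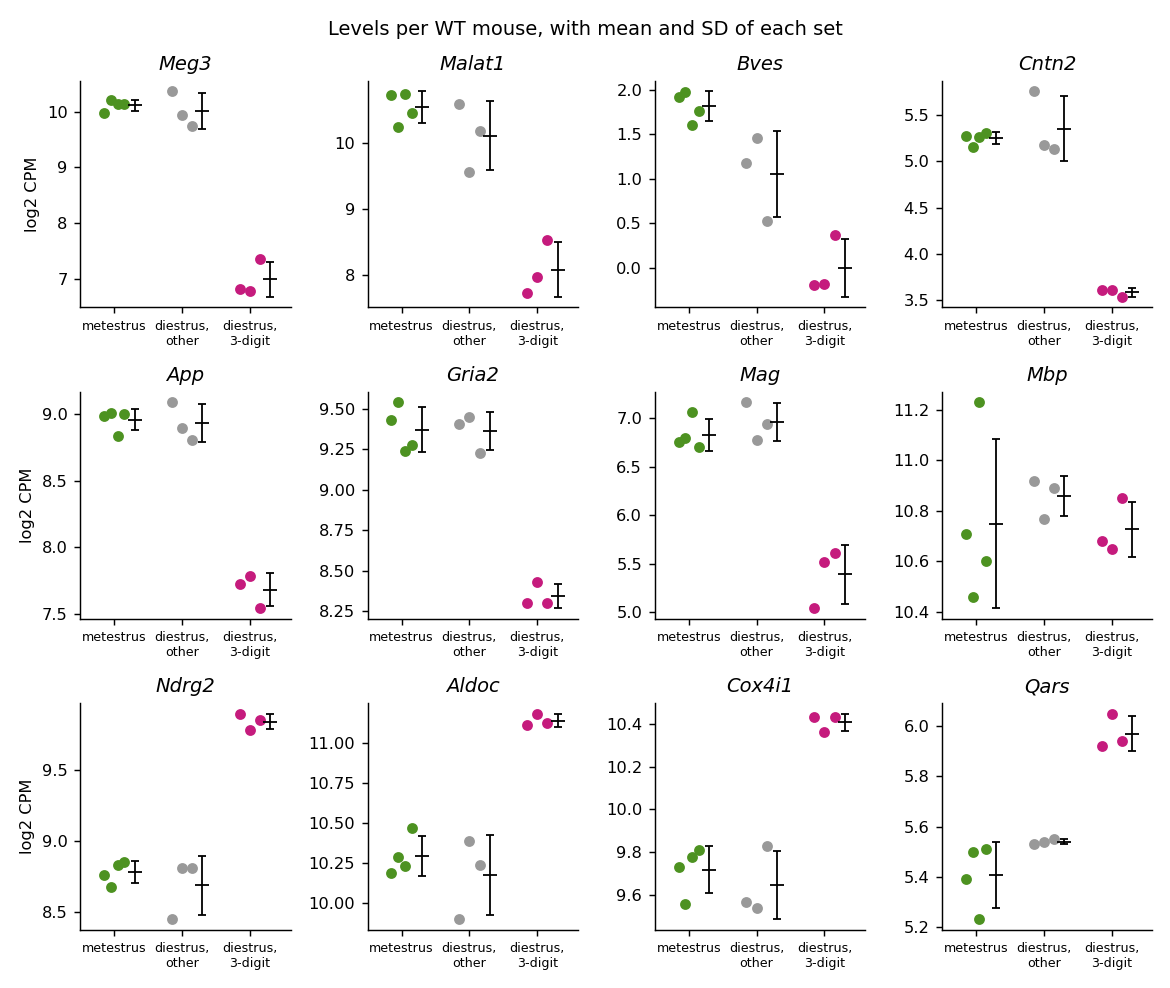
Levels (log2 CPM) of single genes, with 1 point for each WT metestrus mouse, each 3-digit and each other WT diestrus mouse, and a bar for the mean and SD of each set. For Meg3, Cntn2, App and Ndrg2 the 3-digit mice are set apart and the other diestrus mice overlap metestrus.

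Lists tied to hormones and activity held no calls against all diestrus mice. Of 10 steroid hormone receptor genes, with a median of 0.12, 0 were called. Esr1, the alpha estrogen receptor, was at 0.63 to 1.11 log2 CPM in metestrus, 1.24 to 1.61 in the 3-digit mice and 0.86 to 1.45 in the other diestrus mice, a difference of -0.45 (SE 0.27, adjusted p = 0.266). Pgr, the progesterone receptor, was at 3.64 to 4.26, 3.61 to 3.90 and 3.82 to 3.89 in the same order, so the groups overlapped, and gave 0.19 (SE 0.12, adjusted p = 0.298). Of 16 immediate early genes 0 were called, although all 16 had positive values, with a median of 0.39. This list was 1 of few whose median kept its sign and part of its size against the other diestrus mice (0.23). Fos gave 0.88 (SE 0.38) and Egr1 gave 0.42 (SE 0.15), with adjusted p of 0.128 and 0.0757. None of the 14 glucocorticoid response genes (median -0.21) or the 16 clock genes (median 0.09) was called. With the 3-digit mice alone, 5 immediate early genes, 1 steroid receptor gene and 4 clock genes were called higher in metestrus, and 3 glucocorticoid response genes and 1 clock gene lower. That is 31.2% of the immediate early, 10% of the steroid receptor, 31.2% of the clock and 21.4% of the glucocorticoid response genes. Each share lies below the 38.5% of all genes that were called against these mice in either direction. By direction, 21.1% of all genes were called higher in metestrus and 17.3% lower. The immediate early share, all higher, lies above the first of these and the steroid receptor share below it. The glucocorticoid response share, all lower, lies above the second.

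Markers of tissue outside the hippocampus were compared for the same mice. The 12 choroid plexus genes had no call and a median of -2.0, and their summed level was 117 to 206 CPM in metestrus, 144 to 318 in the other diestrus mice and 290 to 1330 in the 3-digit mice. Ttr, the plexus transthyretin, was at 2.71 to 5.87 log2 CPM in metestrus, 7.53 to 10.09 in the 3-digit mice and 4.47 to 7.15 in the others. The 3 detected pituitary genes, Prl, Gh and Pomc, summed to 9.69 to 223 CPM, 4.64 to 22.6 CPM and 23.6 to 75.8 CPM in metestrus, 3-digit and other diestrus mice. Prolactin (Prl) was at 1.58 to 6.82 log2 CPM in metestrus and at -1.18, 0.59 and 3.20 in the 3-digit mice. The lists for neocortex (9 genes), thalamus (8 genes), blood (5 genes), endothelial cells (8 genes) and meningeal fibroblasts (6 genes) had no call, and their summed levels overlapped between metestrus and the 3-digit mice. Among the lists of this paragraph only choroid plexus had a summed level in the 3-digit mice clear of the metestrus range, and its part in the other differences was not tested.

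By gene type, the calls toward metestrus were not evenly spread. Of 306 genes of the class TEC, loci that still await experimental proof, 76 were called, all higher in metestrus, with a median of 0.91, and of 28 sense-intronic transcripts 9 were, with a median of 1.02. Against the other diestrus mice these medians were 0.09 and 0.06. As the kit is not stranded, reads of such loci cannot be told from those of the genes they overlap. Of 1168 processed pseudogenes 8 were higher in metestrus and 5 in diestrus, with a median of -0.14. Protein-coding genes called higher in metestrus had a median exonic length of 7268 bases and those higher in diestrus 3023 bases, where the median of all 13482 protein-coding genes was 4571 bases. The part of transcript length in the differences was not tested, and RNA integrity of the single mice was not analysed here.

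KO mice of the same stages are independent animals, so they repeat the comparison without sharing a library. KO metestrus (5 mice) differed from KO diestrus (6 mice) in 1689 genes (10.4%), with 1325 higher in metestrus (8.2%) and 364 higher in diestrus (2.25%). Both genotypes called 582 genes, which is 49.7% of the WT calls and 34.5% of the KO calls, all in the same direction. Of the 1170 WT calls 97.8% had the same sign in KO. The share with the same sign over all genes tested is not given here, so this value has nothing to be set against. In WT 3 of the 6 diestrus mice and in KO 4 of the 6 have 3-digit numbers. Stage and number series cannot be told apart in this agreement. With all 3-digit mice left out, 0 genes were called in WT and 0 in KO (360 and 539 at an unadjusted p under 0.05). No gene was called in the test of whether the stage difference depends on genotype by limma, edgeR or DESeq2 (570, 184 and 198 at an unadjusted p under 0.05).

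The KO diestrus group also holds 3-digit mice, 532, 643, 644 and 645, beside mice 2592 and 7_1. The 3-digit KO mice were 10.86 to 13.86 weeks old, mouse 2592 was 16.29 and mouse 7_1 was 23.43 weeks old. Number series and age thus cannot be told apart in the KO diestrus mice. These 3-digit KO mice differed from the other 2 in 1402 genes (8.67%), of which 237 were higher (1.47%) and 1165 lower (7.21%). Of the 903 genes higher in WT metestrus, 886 were lower in the 3-digit KO mice and 572 were called, with a median of -0.72. Of the 267 genes higher in WT diestrus, 257 were higher in the 3-digit KO mice and 59 were called, with a median of 0.29.

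**Figure D5:**
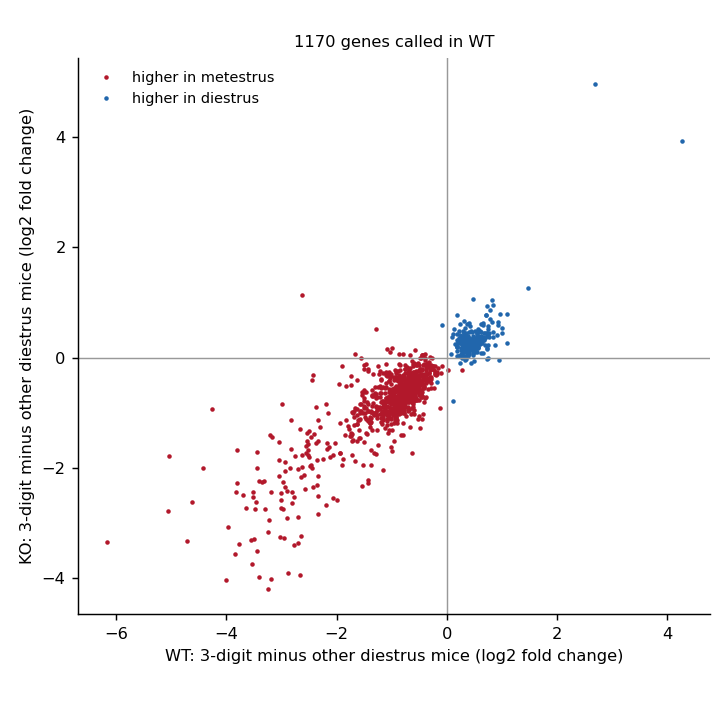
Each point is 1 of the 1170 genes called in WT metestrus against WT diestrus. The x axis is the log2 fold change of 3-digit against other diestrus mice in WT, the y axis the same in KO, and the 903 genes higher in metestrus fall mostly in the lower left while the 267 higher in diestrus fall mostly in the upper right.

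The split is shown here for 4 leading genes in each KO mouse. Meg3 was at 7.17 to 7.68 log2 CPM in the 3-digit KO mice, at 10.17 and 10.29 in the other KO diestrus mice and at 8.80 to 10.14 in KO metestrus. Cntn2 was at 4.21 to 4.44, at 5.29 and 5.55, and at 5.18 to 5.78 in the same order, and App was at 7.67 to 8.11, at 8.65 and 9.06, and at 8.58 to 8.90. Ndrg2 went the other way, at 9.54 to 9.86 in the 3-digit KO mice, 8.77 and 9.07 in the other KO diestrus mice and 8.68 to 9.19 in KO metestrus. In these 4 genes the 3-digit KO mice lay outside the range of both other KO sets. They lay below both sets in 486 of the 903 genes higher in WT metestrus (53.8%, against 7.13% of all genes tested). They lay above both in 105 of the 267 genes higher in WT diestrus (39.3%, against 3.79%). In Bves, Kcnd2 and Reln, for example, they lay neither below nor above both sets.

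By list, the genes called lower in the 3-digit than in the other KO diestrus mice, where 7.21% of all genes were, numbered 6 of 15 myelin genes, 9 of 14 node and paranode genes, 7 of 19 AMPA receptor genes, 7 of 13 nuclear long non-coding RNAs and 5 of 14 endoplasmic reticulum chaperones, with 0 members of these lists called higher. Of all genes, 1.47% were called higher in the 3-digit KO mice. The ribosomal protein list did not follow in number, with 1 of 80 (1.25%) called higher in the 3-digit KO mice. All 80 had positive values, with a median of 0.20. In WT 77 of those 80 were called higher in the 3-digit than in the other diestrus mice, with a median of 0.48. For the respiratory chain the KO count was 5 of 83 (6.02%) called higher and 0 lower, above the share of all genes, with a median of 0.18.

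The 7 mice with 3-digit numbers were the lowest of all 55 in 178 of the 903 genes (19.7%, against 1.42% of all genes tested) and the highest in 15 of the 267 (5.62%, against 0.204%). The 903 and 267 genes were called with mice 548, 549 and 569 in the diestrus group. An excess over all genes is therefore partly built in, and these shares are a description. Meg3 was at 6.78 to 7.68 log2 CPM in them and at 7.99 to 10.48 in the other 48, where the lowest value was from a WT male. The ranges were 3.53 to 4.44 against 5.02 to 6.03 for Cntn2, 7.54 to 8.11 against 8.54 to 9.39 for App and 9.54 to 9.89 against 8.45 to 9.20 for Ndrg2.

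Age and parentage could be looked at in mice without 3-digit numbers. The 3-digit mice were 10.86 to 13.86 weeks old, and 10 other mice were under 14 weeks (12 to 13.57 weeks). In those 10, Meg3 was at 8.90 to 10.48, Cntn2 at 5.13 to 5.81, App at 8.54 to 9.17 and Ndrg2 at 8.47 to 9.20, in no gene within the range of the 3-digit mice. The 8 WT mice from Cnih3 x B6 parents without 3-digit numbers were at 7.99 to 10.26, 5.02 to 5.80, 8.81 to 9.39 and 8.61 to 8.92 in the same order of genes, also apart from the 3-digit mice. These 4 genes were chosen among the leading ones. In each of them the 3-digit mice lay clear of all 48 other mice, so any part of the 48 had to lie apart. Their values therefore tell nothing about age or parentage. Other lists overlapped. As the median deviation of a list from the WT metestrus mean (log2), nuclear long non-coding RNAs were at -1.12 to -0.63 in the 3-digit mice, at -0.70 to -0.02 in the other mice under 14 weeks and at -1.43 to 0.14 in the 8 WT mice. Respiratory chain subunits were at 0.06 to 0.46, at -0.17 to 0.60 and at -0.19 to 0.84, and cytosolic ribosomal proteins at 0.02 to 0.50, at -0.19 to 0.54 and at -0.19 to 0.89, in the same order of mice, so the 3-digit mice lay within the range of the others. Clustered protocadherins (-0.83 to -0.43, -0.78 to 0.22 and -0.72 to 0.33) overlapped as well, and the TEC class overlapped in the 8 WT mice (-1.29 to -0.79 against -1.26 to 0.13). Myelin genes did not overlap (-1.11 to -0.51, -0.32 to 0.44 and -0.04 to 0.26), and neither did they in the 48 other mice as a whole (-0.37 to 0.62). The parts of age and parentage in the differences were not separated by these values. With age as a covariate the comparison of metestrus with all diestrus mice called 64 genes in place of 1170. The same covariate gave 6975 genes in place of 6219 against the 3-digit mice, 5743 in place of 4988 between 3-digit and other WT diestrus mice, 1862 in place of 1402 between 3-digit and other KO diestrus mice, and 0 against the other WT diestrus mice (393 at an unadjusted p under 0.05). With mice of at least 14 weeks only, which leaves out all 3-digit mice and the metestrus mouse 13_1, it called 0 (335 at an unadjusted p under 0.05).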

How the data were processed

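Dorsal hippocampi were lysed in NP-40 buffer and centrifuged by the authors, and the supernatant's polyadenylated RNA was turned into cDNA with a kit that does not mark strand. The authors aligned reads to GRCm38 with STAR 2.7.9a, assigned unique alignments to Ensembl genes by featureCounts 2.0.3, and deposited raw counts, log2 CPM, CPM and transcript tables. Only the gene counts were analysed, with the deposited log2 CPM values as a check of the normalization (largest difference 4.97e-14 over 16164 genes). The deposited gene CPM and transcript tables were not used, and neither were the authors' own comparisons. Of the columns 1 has no listed mouse and was not used.

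Genes with over 1 CPM in at least 10 of 55 libraries, without 5 ribosomal RNA genes, gave 16168 genes. TMM factors came from edgeR 4.0.16, and limma 3.58.1 in R 4.3.3 fitted the model (voomWithQualityWeights, then eBayes), with 1 mean for each of 10 groups, or of 12 with the WT and KO diestrus mice split by number series. Adjusted p-values follow Benjamini and Hochberg over all genes tested, at 0.05. P-values measure the spread between mice. Totals per library were 25881295 to 63547098, and low genes are the least precise. The fit was tested on simulated data.

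Genes were named by rule: per direction, the 12 with the smallest adjusted p and the 4 with the largest change, leaving out clone names, 6 per direction for 3-digit against other diestrus mice, up to 4 of each list, defining cell type markers, and Cnih3. Some genes that the rule names are not reported here. Neat1, Rian, Peg13 and Xist and the lists said to be put together afterwards were chosen after their values were seen. The mice, lists and tests were chosen with earlier results of these data known. Alternatives were DESeq2 1.42.0, edgeR's quasi-likelihood test, other weights, size factors, filters, covariates and sets of mice.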

Additional observations from a re-analysis of the deposited data

Results flagged for a closer look

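In the 4 metestrus mice 8 of 127 values had 1 mouse far from the others, and in the 6 diestrus mice 3 of 127. Chance gives about 1 in 20, a rate that does not hold where the diestrus mice fall into separate sets. The values are levels of named genes and median levels of lists, in log2 CPM. The gap of the mouse set apart to the nearest other was large beside the whole range of the group. The causes were not tested.

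Mouse 13_1 stood apart in Defb11 (-3.19, others -6.73 to -6.49), in Wdfy1 (5.68, others 4.18 to 4.43) and in the median level of the oligodendrocyte precursor list (3.98, others 3.41 to 3.42). The median level of a list is the level of its middle members and can shift when members change rank. As the median deviation of its members from the WT metestrus mean, the precursor list spanned only -0.09 to 0.17 in the metestrus mice. Mouse 380_1 stood apart in Stx1a (7.49, others 7.34 to 7.36), in Pdia3 (7.57, others 6.97 to 7) and in the median of the respiratory chain list (7.81, others 7.96 to 7.99). App was lower in mouse 3_3 (8.84, others 8.99 to 9.01), a gap that is small beside the distance to the 3-digit diestrus mice. Aqp4 was lower in mouse 5_1 (5.6, others 5.83 to 5.85).

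Among the diestrus mice, 2_2 was high in Aqp4 (6, others 5.59 to 5.72) and in the median of the dentate granule cell list (4.97, others 4.31 to 4.47). As the median deviation of its members, the dentate list spanned -0.12 to 0.18 in 2_2, 380_4 and 8_1 and -0.54 to -0.36 in the 3-digit mice. Mouse 380_4 was high in the median of the kinesin and dynein list (7.76, others 7.58 to 7.65). None of the 3-digit mice was set apart singly in this way. Where the 3-digit mice lie together, the gap of each to the nearest other is small beside a range that spans both sets. The rule could then not flag any of them.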

How the results depend on the processing

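The count of 1170 genes between WT metestrus and all WT diestrus mice depended on the fit. It was 1 with DESeq2, 0 with edgeR's quasi-likelihood test, 0 with voom without quality weights, 404 with no filter on low counts, 64 with age as a covariate, 0 with only the 2 groups in the fit, 0 with only mice from B6 x B6 parents and 0 with only mice of at least 14 weeks. With the 3-digit diestrus mice alone it was 6270, with the other diestrus mice alone 0, and with all 3-digit mice of both genotypes left out 0 (360 at an unadjusted p under 0.05), an alternative added after the data were seen. Leaving out 1 mouse at a time gave 0 to 4962 genes. Fits with relative log expression (RLE) size factors (1153 genes) and with the mouse number as a random effect (1175) stayed close.

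The count against the 3-digit mice was 3774 with DESeq2, 3428 with edgeR and 3352 without quality weights, and 4723 to 6065 with 1 mouse left out, in place of 6219. Against the other diestrus mice it was 20 with no filter on low counts and 0 in every fit that left out 1 mouse. Between 3-digit and other WT diestrus mice the counts with 1 mouse left out were 3724 to 4820, in place of 4988. For KO metestrus against KO diestrus, in place of 1689, the count was 4 with DESeq2, 0 with edgeR, 0 without quality weights, 348 with no filter, 74 with age as a covariate, 0 with all 3-digit mice left out and 667 to 2350 with 1 mouse left out. Between 3-digit and other KO diestrus mice it was 2221 with no filter and 948 to 1594 with 1 mouse left out, in place of 1402. The genotype interaction gave 0 to 3 genes with 1 mouse left out. The causes of these shifts were not tested, beyond the smaller number of mice where some were left out.

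Of the named genes, those with a log2 fold change of opposite sign in a fit without the 3-digit mice are these. With only mice from B6 x B6 parents they were Arntl2 -0.04, Firre -0.07, Ftx -0.09, Cntn2 -0.20, Ndrg2 0.18, Hnmt 0.11, Shd 0.12, Fbxo44 0.13, Gtf2b 0.11, Cdk10 0.06, Rtl1 -0.07, Miat -0.13, Asrgl1 0.17, Fxyd6 0.14, Smc1a 0.06, Scp2 0.18, Aldoc 0.19, Snhg11 -0.06, Il1rap -0.17, App -0.05, Gria2 -0.08, Cnih3 -0.26, Neat1 -0.18, Cldn11 -0.05, Mag -0.08, Trf -0.11, Mbp 0, Mobp -0.10, Nfasc -0.09, Scn8a -0.11, Nrcam -0.14, Gria3 -0.04, Shisa7 -0.03, Nptx1 -0.15, Grin1 -0.37, Kcnd2 -0.01, Sv2a -0.02, Stx1a 0.04, Cplx1 0.10, Syt1 -0.08, Sorl1 -0.01, Aplp1 -0.25, Aplp2 0, Srsf2 -0.03, Canx -0.02, Pdia3 -0.05, Reln -0.08, S100b 0.16, Aldh1l1 0.11, Gfap 0.18, Aqp4 -0.03, Cox4i1 0.18, Uqcrc1 0.15, Psmd13 0.11, Psmb10 0.22, Rpl4 0.16, Rpl3 0.17, Ttr 0.37 and Prl -0.51. With only mice of at least 14 weeks they were Cntn2 -0.02, Ndrg2 0.07, Asrgl1 0.11, Fxyd6 0.10, Smc1a 0.08, Scp2 0.10, Aldoc 0.10, Il1rap -0.13, Gria2 0, Mag -0.04, Trf -0.02, Mbp -0.02, Cnp -0.02, Mobp -0.05, Nrcam -0.05, Shisa7 -0.01, Nptx1 -0.07, Grin1 -0.21, Syt1 -0.04, Aplp1 -0.03, Pdia3 -0.05, Reln -0.09, S100b 0.11, Aldh1l1 0.10, Gfap 0.10, Cox4i1 0.06, Uqcrc1 0.07, Psmd13 0, Psmb10 0.06, Rpl4 0.04, Rpl3 0.05, Prl -0.79 and Wfs1 -0.03. With only the diestrus mice without 3-digit numbers they were Cntn2 -0.01, Ndrg2 0.07, Asrgl1 0.07, Fxyd6 0.06, Smc1a 0.09, Scp2 0.07, Aldoc 0.08, Il1rap -0.12, Mag -0.07, Trf -0.07, Mbp -0.04, Cnp -0.06, Mobp -0.03, Nptx1 -0.04, Grin1 -0.15, Syt1 -0.02, Pdia3 -0.09, Reln -0.08, S100b 0.13, Aldh1l1 0.06, Gfap 0.08, Cox4i1 0.07, Uqcrc1 0.03, Psmb10 0.07, Rpl4 0.02, Rpl3 0.01 and Prl -0.38. With all 3-digit mice of both genotypes left out they were Cntn2 -0.01, Ndrg2 0.06, Asrgl1 0.07, Fxyd6 0.05, Smc1a 0.08, Scp2 0.07, Aldoc 0.08, Il1rap -0.13, Mag -0.08, Trf -0.08, Mbp -0.05, Cnp -0.07, Mobp -0.03, Nrcam -0.01, Nptx1 -0.05, Grin1 -0.16, Syt1 -0.02, Pdia3 -0.10, Reln -0.08, S100b 0.12, Aldh1l1 0.05, Gfap 0.08, Cox4i1 0.06, Uqcrc1 0.03, Psmb10 0.06, Rpl4 0.01, Rpl3 0.01 and Prl -0.39.

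Genes near 0 in the main fit changed sign in other fits: Mbp -0.02 with DESeq2, Mbp -0.02 with edgeR, Mbp -0.04 and Mobp 0 without quality weights, Mbp -0.02 and Cnp -0.03 with age as a covariate, Mbp -0.17, Cnp -0.08 and Mobp -0.07 without mouse 3_3, Mbp -0.05, Cnp -0.09, Mobp -0.02, Gfap 0 and Prl -0.19 without mouse 548, Mbp -0.06, Cnp -0.07, Mobp 0, Gfap 0 and Prl -0.10 without mouse 549, and Mbp -0.03 and Cnp -0.07 without mouse 569. With each mouse left out in turn, Mbp ranged from -0.17 to 0.20, Cnp from -0.09 to 0.15, Mobp from -0.07 to 0.22, Gfap from -0.28 to 0 and Prl from -0.19 to 2.82. Over all other fits the named genes kept direction and call in 1018 cases, kept direction but lost the call in 803, gained it in 35 and changed sign in 168, and list medians moved by more than the spread between mice in 89 of the cases. No paired analysis was possible because replicate numbers were given in accession order and the 2 stages share only 1 mouse number (380_1 and 380_4) in WT. The random effect above was fitted over all 55 mice.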

Other observations

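The other mice of the series were placed by the same 903 and 267 genes. Most lay near metestrus, and the farthest without a 3-digit number was WT male 19_1, aged 12 weeks, with medians of -0.48 and 0.50 from the WT metestrus mean. For the 903 genes the next were a KO metestrus mouse, 7_2 (-0.38 and 0.22), and a WT proestrus mouse, 20_2 (-0.37 and 0.21), and for the 267 genes KO male 2590 (-0.29 and 0.40). The 3-digit mice of both genotypes lay between -1.03 and -0.62 for the 903 genes and between 0.32 and 0.52 for the 267.

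In KO mice 13 of the 15 myelin genes were called higher in metestrus than in diestrus, where 7 were in WT, and 4 of the 5 blood genes were called higher in KO metestrus (median 0.82) with 0 in WT (median 0.12). No gene passed limma's test of a difference between the genotypes (570 at an unadjusted p under 0.05).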
